A study of Mus musculus with 4 samples.

Results

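Potassium channel genes were followed in γδ T cells of mouse epididymal fat, which were sorted by whether they expressed a reporter of PLZF, the transcription factor encoded by Zbtb16. Members were all loci whose deposited gene symbol begins with KCN, more letters and a digit, with RNA genes such as Kcnq1ot1 left out. This rule gave 93 genes of 46031 in the table, all of which matched a GENCODE M21 gene at their locus. It uses symbols alone and no measured value.

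All mice were males of strain C57Bl/6 that carried the PLZF GFP reporter, and they were 16 to 22 weeks old. RNA of the sorted cells was made into SMART-seq2 libraries, a full-length cDNA method for small samples. There were 2 libraries of PLZF+ cells (A7 and B7, codes in the table's columns that are read as plate wells) and 2 of PLZF- cells (A6 and B6), with 10 mice pooled for each library. Every column name also carries the tag SFD, which the names do not spell out. Nothing in the labels says whether both subsets came from the same mice, and the gates are not given in them.

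Estimated depth without the rRNA precursor came to 1837514 (A7) and 2035080 reads (B7) for PLZF+ cells, and to 744569 (A6) and 981885 (B6) for PLZF- cells. One read therefore stood for 0.558 to 0.619 normalized counts in PLZF+ and for 1.22 to 1.69 in PLZF- libraries. Normalized counts of Zbtb16 were 2899 and 2921 with the reporter and 310 and 699 without it, which checks the labels and is no finding, because the sort used it. The 7 measured symbols of the γδ T cell marker list were above 0 in every library, and all 7 were higher in PLZF+ cells (Cd3e by 1.22 ± 0.30 on the log2 scale, SE, adjusted p = 0.027, limma). Trdc, Tcrg-C1, Tcrg-C2, Tcrg-C4 and Trdv4 were not matched in the table and were not analysed here.

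Potassium channels let potassium leave the cell along its gradient, which keeps the membrane potential negative. In T cells this negative potential is the electrical force for calcium entry after antigen receptor signalling, and it also bears on cell volume. The voltage-gated channel of Kcna3 and the calcium-activated channel of Kcnn4 are the classical potassium channels of lymphocytes. Two-pore-domain channels carry a background current, and inward rectifiers of the Kcnj8 type open when cellular ATP is low.

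Most members were not seen in these cells. Of the 93, 65 were listed at 0 in all 4 libraries, 28 were above 0 in at least 1, and 6 in all 4. Of all 46031 genes, 15862 were above 0 in at least 1 library, so most genes of the table were likewise not seen. The number above 0 was 18 and 15 for the PLZF+ pools against 15 and 17 for the PLZF- pools, although the PLZF+ libraries were deeper. Of the 28, 6 were above 0 in PLZF+ libraries only and 7 in PLZF- libraries only, and 9 rested on 1 library. The same shares over all genes were not worked out, so these counts are a description only. A count of 0 allows up to 3 reads, which is 1.67 to 1.86 normalized counts in PLZF+ and 3.66 to 5.06 in PLZF- libraries. These limits cover counting error only, since PCR copies are not independent molecules.

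**Figure D1:**
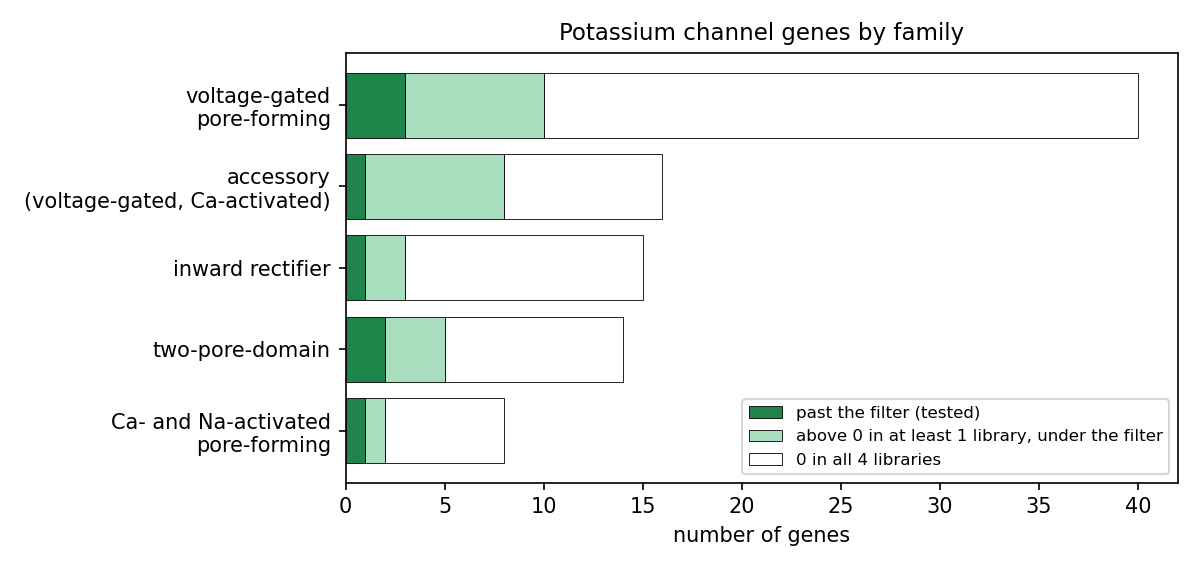
Number of potassium channel genes (horizontal axis) in each of 5 families, split into those past the filter of a mean of 10 normalized counts, those above 0 in at least 1 library but under it, and those at 0 in all 4 libraries. Of 40 voltage-gated pore-forming genes 30 were at 0, and 8 of the 93 members were past the filter.

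Detection differed in number between families. Of 40 genes for voltage-gated pores, 10 were above 0, and of 15 inward rectifier genes 3 were. Of 14 two-pore-domain genes 5 were above 0, of 8 calcium- and sodium-activated pore genes 2, and of 16 accessory subunit genes 8.

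A mean of at least 10 normalized counts was reached by 8 members: Kcnk1, Kcnk5, Kcna3, Kcnc1, Kcnq5, Kcnn4, Kcnj8 and the accessory gene Kcnab2. Of these 8, 1 was higher (Kcnk1) and 1 lower (Kcnj8) in PLZF+ cells at an adjusted p under 0.05 (limma, two-sided, Benjamini-Hochberg over 9246 tested genes). Among all tested genes 2.52% were higher and 5.00% lower by the same rule, 7.52% in either direction. With 1 call in each direction among 8 genes, the shares of called members are too coarse to set against that background. The median log2 fold change of the 8 was 0.76, also with Kcnj8 at its lower bound, and that of all tested genes was -0.03. The 2 subsets did not overlap for 6 of the 8 members and for 51.3% of tested genes.

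**Figure D2:**
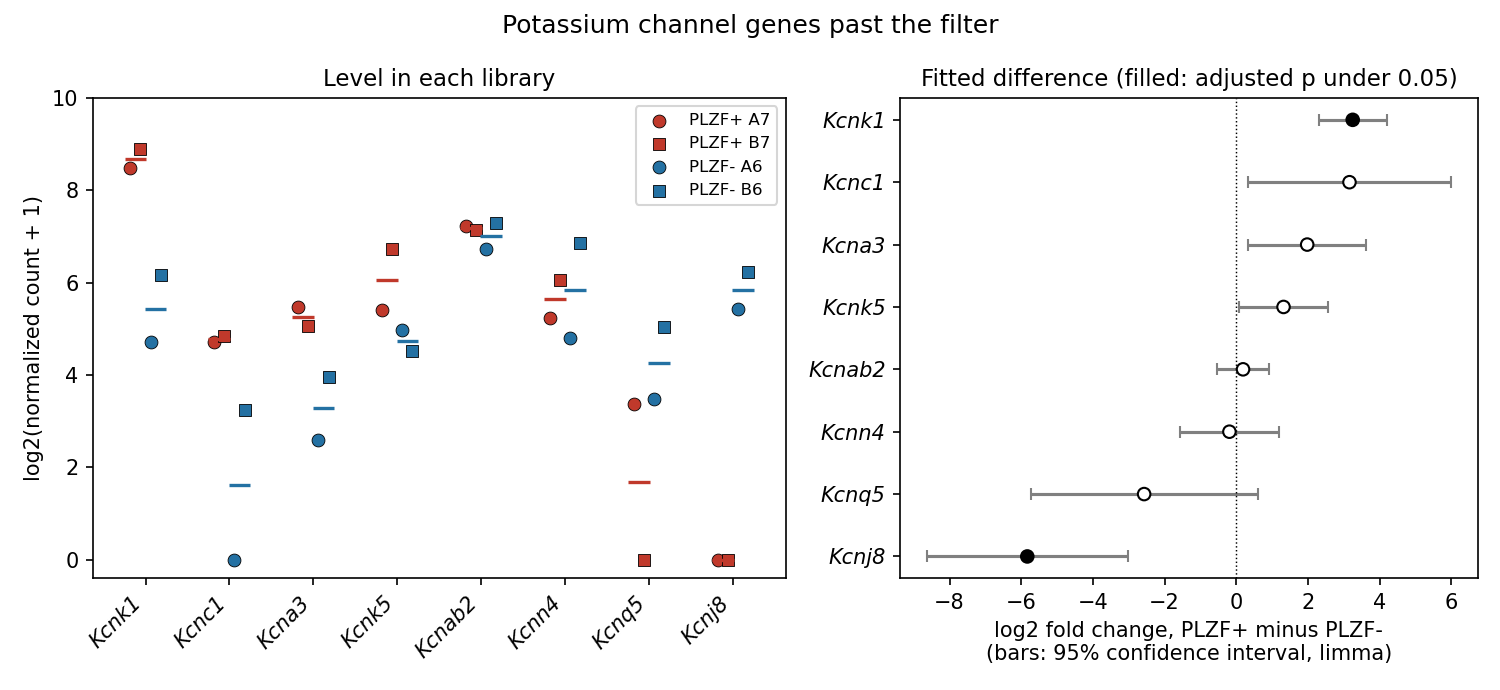
Left, log2(normalized count + 1) of the 8 members past the filter in each library (points) with the subset mean (lines). Right, the fitted log2 fold change of PLZF+ against PLZF- cells with its 95% confidence interval. Kcnk1 is high in both PLZF+ libraries, Kcnj8 is at 0 in both, and these are the filled points that passed the threshold.

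Kcnk1 was the potassium channel gene that rose in PLZF+ cells. It encodes TWIK-1, a two-pore-domain channel of the background current (chromosome 8, 125995170 to 126030685, plus strand, mm10). Its normalized counts were 356 in A7 and 477 in B7, against 25.3 in A6 and 70.7 in B6. Both PLZF+ libraries thus lay far above both PLZF- libraries, and the PLZF- libraries differed from each other more than the PLZF+ ones in relative terms. The means were 416 ± 85.2 and 48.0 ± 32.1 normalized counts (SD, n = 2 each).

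The log2 fold change of Kcnk1 was 3.25 ± 0.44 (SE, 95% confidence interval 2.30 to 4.20, adjusted p = 0.00055, limma). By fold change it was in place 29 of the 233 genes that were higher in PLZF+ cells. The authors' deposited table also called it, with a q-value of 0.0019. Of the loci it tested, 1.82% were called higher and 3.91% lower in PLZF+ cells. Without PLZF+ library B7 the adjusted p was 0.069 (log2 fold change 3.04), and without the trend and robust moderation it was 0.090. Over all alternatives the fold change stayed between 2.53 and 3.97, and the adjusted p between 2.5e-18 and 0.090. The lowest came from adding the well letter to the model, which leaves 1 residual degree of freedom and gives little hold on the spread.

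The antisense gene Gm45875 shares 8.0% of the exon bases of Kcnk1, and the sources used here do not give strand use in the counting. The genes of the γδ T cell marker list were also higher in PLZF+ libraries, with sums of 5799 and 6269 against 1513 and 2015 normalized counts. A single receptor locus, that of Tcrg-C3, gave 2511 and 2835 of the PLZF+ sums and 440 and 488 of the PLZF- sums. In a sorted population a larger share of cells with a transcript and more transcript per cell cannot be told apart. The part of that difference in the result for Kcnk1 was not tested.

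The other two-pore-domain genes were lower in level. Kcnk5 encodes TASK-2, a channel that opens at alkaline pH. It had 41.5 and 104 normalized counts in the PLZF+ pools against 30.4 and 22.0 in the PLZF- pools. The subsets did not overlap, but library A7 was nearer to the PLZF- libraries than to B7, and Kcnk5 did not pass (log2 fold change 1.32 ± 0.57, 95% confidence interval 0.08 to 2.56, adjusted p = 0.21, limma).

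Kcnk6 and Kcnk7 lay under the filter. Kcnk6, which encodes TWIK-2, a channel close in sequence to that of Kcnk1, had 24.2 and 7.26 normalized counts in the PLZF+ pools against 0 and 1.22 in the PLZF- pools. This was 52 reads against 1, a ratio of 21.6 with an exact 95% counting interval of 3.70 to 868. Such an interval pools the reads of a subset and leaves out the spread between its libraries. Kcnk7, a relative for which channel activity has not been shown, had 18.0 and 9.49 normalized counts in the PLZF+ pools against 3.37 and 4.88 in the PLZF- pools. With no filter, Kcnk6 and Kcnk7 had an adjusted p of 0.23 and 0.51 (limma). The subsets did not overlap for Kcnk1, Kcnk5, Kcnk6 and Kcnk7, which was also so for 51.3% of all tested genes, and of these 4 Kcnk1 alone passed. The fifth detected gene of the family, Kcnk10, had 1 read, in A6.

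Kcnj8 was the member that fell in PLZF+ cells. It encodes the inward rectifier Kir6.1, the pore of an ATP-sensitive potassium channel (chromosome 6, 142564837 to 142571614, minus strand, mm10). Its normalized counts were 42.2 in A6 and 74.4 in B6, which are 25 and 61 reads, and 0 in A7 and B7. The gene was thus seen in each PLZF- pool and in neither PLZF+ pool. No exon of another annotated gene overlaps its exons. Against a floor of 3 reads per library, averaged over the subset, Kcnj8 was at least 33.0-fold lower in PLZF+ cells.

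The test gave Kcnj8 an adjusted p of 0.015 (limma, log2 fold change -5.83 ± 1.29). That fold change depends on the pseudocount, because a subset at 0 has no fixed value on a log scale: it was -7.81 with a pseudocount of 0.25 and -3.91 with 4. The adjusted p was 0.080 with 0.25 and 0.0024 with 4. Without A6 it was 0.16 and without B6 0.17, and over all alternatives it ran from 0.0010 to 0.17. The authors' deposited table called Kcnj8 as lower, with a q-value of 0.0019.

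The sulfonylurea receptors that assemble with such pores were close to absent from the libraries. Abcc9, which lies 16.2 kb from Kcnj8, had 2 reads in PLZF+ library A7 and 0 in the other libraries, and Abcc8 had 0 in all 4. Ldhb, a neighbouring coding gene at 56.9 kb on the other side, did not pass (13.0 and 7.81 normalized counts in the PLZF+ pools against 10.1 and 12.2 in the PLZF- pools, adjusted p = 0.96, limma).

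Tested genes of the natural killer and innate lymphoid list and of the dendritic cell and MHC class II list mostly fell in PLZF+ libraries, as did Kcnj8. Of 10 tested loci of the natural killer and innate lymphoid list, 9 fell and 0 rose (5.00% and 2.52% of all tested genes), and the 12 loci summed to 7904 and 6472 normalized counts in PLZF- against 2395 and 2505 in PLZF+ libraries. Rora, which did not pass (log2 fold change -0.20, adjusted p = 0.57, limma), made up most of the PLZF+ sums, and the other 11 loci summed to 4822 and 4282 in the PLZF- pools against 239 and 148 in the PLZF+ pools. None of the 12 was at 0 in all libraries, and Ncr1 had 693 and 694 normalized counts in PLZF- against 3.72 and 3.91 in PLZF+ libraries. Of 10 tested dendritic cell and MHC class II loci, 6 fell and 0 rose, with sums of 1940 and 955 over 11 loci in PLZF- against 193 and 87.1 in PLZF+ libraries. Siglech, of plasmacytoid dendritic cells, was at 0 in both PLZF+ libraries. Bst2 and Xcr1 of the same list did not pass (log2 fold changes -0.34 and -0.06, adjusted p = 0.79 and 0.98, limma). The αβ T cell, B cell, macrophage and monocyte, and mast cell and granulocyte lists had 2, 1, 1 and 3 tested loci. Of these, none passed. In the order A6, B6, A7 and B7, the mast cell and granulocyte list summed to 716.9, 252.5, 240.3 and 36.28 normalized counts. The macrophage and monocyte list summed to 79.29, 103.7, 19.82 and 32.37, and the αβ T cell list to 72.55, 96.35, 53.89 and 16.18. The B cell list was higher in PLZF+ libraries (15.18, 15.86, 34.69 and 30.14). Of 10 stromal markers 8 were at 0 in all 4 libraries, Pdgfra among them, and the list summed to 128 and 56.1 normalized counts in the PLZF- pools against 28.5 and 2.79 in the PLZF+ pools. Dpp4, the 1 stromal marker tested, which lymphocytes can also express, fell with Kcnj8. It had 128 and 56.1 normalized counts in the PLZF- pools against 6.19 and 0 in the PLZF+ pools (log2 fold change -5.00 ± 1.02, adjusted p = 0.0093, limma), a call that ended without A6 (0.24), B6 (0.085) or B7 (0.069). Pdgfrb had 22.3 and 2.79 normalized counts in the PLZF+ pools and none in the PLZF- pools. Neither the cells that held these transcripts nor their part in the result for Kcnj8 was tested.

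Of the other inward rectifier genes, Kcnj13 had 8.44 and 4.88 normalized counts in the PLZF- pools and none in the PLZF+ pools. However, 49.1% of its exon bases are shared with Gigyf2 on the other strand, so its reads cannot be assigned. Kcnj9 had 8 reads, all in B7, at a locus shared with BC038600.

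The voltage-gated channel genes did not pass the test. Kcna3, the main voltage-gated channel gene of effector T cells, had 43.4 and 32.4 normalized counts in the PLZF+ pools against 5.06 and 14.6 in the PLZF- pools. Every PLZF+ value exceeded both PLZF- values, of which the lower stood for 3 reads. The log2 fold change was 1.98 ± 0.75 (SE, 95% confidence interval 0.34 to 3.62, unadjusted p = 0.022, adjusted p = 0.16, limma). The adjusted p ranged from 0.075, without B6, to 0.69, without A7.

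Kcnc1 encodes Kv3.1, a fast voltage-gated channel also described in mouse T cells, and its locus is shared with the transcript AK086765. It had 25.4 and 27.9 normalized counts in the PLZF+ pools against 0 and 8.54 in the PLZF- pools. The 2 PLZF+ libraries were close to each other and the 2 PLZF- libraries were not (log2 fold change 3.16 ± 1.31, 95% confidence interval 0.32 to 6.00, adjusted p = 0.19, limma). Kcnq5, a gene of the slowly opening channels of the M current, was listed in the other direction. It had 9.29 and 0 normalized counts in the PLZF+ pools against 10.1 and 31.7 in the PLZF- pools, so that A7 lay just below A6 (log2 fold change -2.57 ± 1.46, adjusted p = 0.35, limma). Kcnc1 was at 0 in A6 and Kcnq5 in B7, so both fold changes depended on the pseudocount. With 0.25 and 4 they were 4.18 and 2.11 for Kcnc1, and -3.56 and -1.62 for Kcnq5. By FPKM they were 1.32 for Kcnc1 and -0.97 for Kcnq5.

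Some voltage-gated genes lay under the filter. Kcna6, which encodes a channel of the same subfamily as that of Kcna3, had 7.43 and 6.14 normalized counts in the PLZF+ pools and none in the PLZF- pools, at least 1.56-fold higher. Of its exon bases 39.6% are shared with the antisense gene Gm26673. Kcna4 had 8 reads, all in A6, Kcng3 had 8 reads, all in A7, and Kcnq1 had 9 reads in A7 and 1 in A6. Genes seen in 1 library of a subset, such as these, were not comparable at this depth.

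Kcnn4 encodes KCa3.1, the calcium-activated channel of activated T cells. It had 36.5 and 65.8 normalized counts in the PLZF+ pools against 26.99 and 116 in the PLZF- pools. The lowest and the highest value were both in PLZF- libraries, so the subsets overlapped. The log2 fold change was -0.19 ± 0.64 with a 95% confidence interval of -1.58 to 1.19 (adjusted p = 0.90, limma), which leaves room for a change of more than 2-fold in either direction. The sign turned without A7 (0.23) and without B6 (0.84), and neither passed. Of the other calcium- and sodium-activated genes, Kcnt1 was above 0, with 4 reads in B6.

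Among accessory genes Kcnab2 was the one past the filter. It encodes a cytoplasmic β subunit that binds voltage-gated channels of the Kcna3 type, and its locus is shared with Gm16334. It had 149 and 141 normalized counts in the PLZF+ pools against 105 and 155 in the PLZF- pools. The log2 fold change was 0.19 ± 0.33 with a 95% confidence interval of -0.54 to 0.91 (adjusted p = 0.80, limma). Its sign depended on the measure, since it was -0.45 in the FPKM table and -0.10 without A6, none of which passed. Kcnip3, which encodes a calcium-binding protein also known as a transcriptional repressor, had 6.75 and 7.32 normalized counts in the PLZF- pools and none in the PLZF+ pools, at least 3.98-fold lower. Kcnmb4, a β subunit gene of the large-conductance calcium-activated channel, had 7 and 10 reads in the PLZF+ pools and 0 and 2 in the PLZF- pools. Its pore gene Kcnma1 was at 0 in all 4. With no filter, all 28 detected members were tested, and Kcnk1 and Kcnj8 were again the ones to pass, while the smallest adjusted p of the other members was 0.23 (limma).

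Levels of different genes were compared as FPKM, which are per gene length. In PLZF+ cells Kcnk1 was the highest of the 8 tested members at 117 ± 24.5 FPKM (SD, n = 2), above 94.6% of tested genes. Kcnab2 followed at 24.1 ± 0.896 FPKM, with no overlap of their libraries. Kcna3 (16.2 ± 2.53 FPKM), Kcnn4 (16.1 ± 6.36) and Kcnk5 (13.5 ± 7.51) came next, and each overlapped its neighbour in this order. Kcnc1 was at 2.18, Kcnq5 at 0.42 and Kcnj8 at 0 FPKM.

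In PLZF- cells the order of mean FPKM was Kcnab2 (34.2 ± 11.6), Kcnn4 (25.7 ± 22.6), Kcnj8 (17.0 ± 6.49) and Kcnk1 (13.6 ± 9.12), and each of these overlapped the next. Kcnk5 (4.72 ± 1.06 FPKM) and Kcna3 (4.41 ± 2.83) lay below them, Kcnq5 was at 1.79 and Kcnc1 at 0.313 FPKM. No single member stood apart at the top in PLZF- cells, unlike Kcnk1 in PLZF+ cells.

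**Figure D3:**
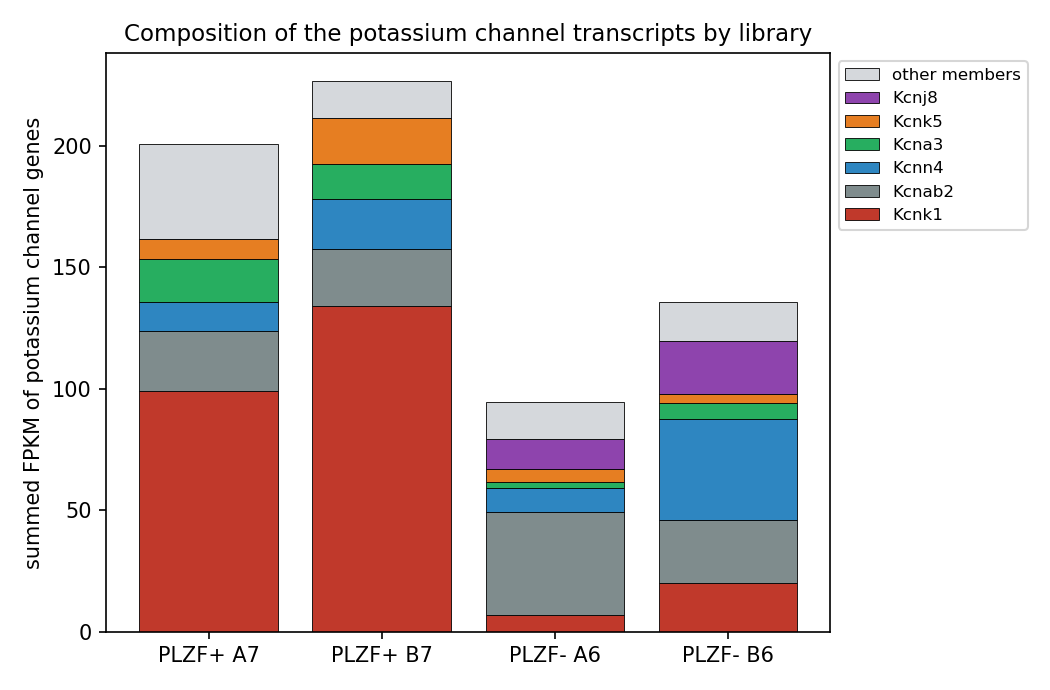
Summed FPKM of all 93 potassium channel genes in each library (bar height), with 6 genes coloured and the rest in light grey. Kcnk1 made up 49.5% and 59.1% of the sum for A7 and B7 (PLZF+) against 7.56% and 14.7% for A6 and B6 (PLZF-), and Kcnj8 appears in the PLZF- bars alone.

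The FPKM of all members summed to 201 and 227 in PLZF+ libraries and to 94.5 and 136 in PLZF- libraries. Kcnk1 gave 49.5% and 59.1% of the sum in the former and 7.56% and 14.7% in the latter. These shares describe transcripts and include accessory subunits, which form no pore.

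Genes that set the potassium gradient were described from a list of pumps and cation-chloride cotransporters. Of 8 tested members (15 measured), 1 rose and 1 fell, with a median log2 fold change of -0.21. Of all tested genes 2.52% rose and 5.00% fell, with a median of -0.03, and 1 call in a list this short cannot be set apart from those shares. Atp1b1, a β subunit of the sodium-potassium pump, fell: its normalized counts were 97.9 in A6 and 153 in B6, and the PLZF+ pools held 1 read, in B7. The ratio of PLZF- to PLZF+ cells was 441 with an exact 95% counting interval of 78.2 to 17524 (log2 fold change -6.62 ± 0.95, adjusted p = 0.00087, limma). This interval pools the reads of a subset and covers counting error only. The fitted fold change depends on the pseudocount: it was -8.08 with 0.25 and -4.89 with 4. Without A6 or B6 the adjusted p was 0.076 or 0.077, and in the authors' deposited table the q-value was 0.62.

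The other β subunit genes were different in pattern. Atp1b2 lay under the filter, with 23.5 and 8.37 normalized counts in the PLZF+ pools and none in the PLZF- pools, at least 3.66-fold higher. Atp1b3 was abundant in every library (287 and 325 in PLZF+ and 381 and 384 normalized counts in PLZF- libraries) and did not pass (adjusted p = 0.47, limma). Fxyd5, a small regulator of the pump, rose by 0.82 ± 0.23 at an adjusted p of 0.04998 (limma), a call that did not hold without any one of the 4 libraries (0.060 to 0.47).

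Of 10 tested channel partners and other potassium-permeable channels (25 measured), 2 rose and 0 fell, against 2.52% and 5.00% of all tested genes, with a median of 0.18. Nme2, a nucleoside diphosphate kinase that activates the Kcnn4 channel, had 201 and 203 normalized counts in the PLZF+ pools against 50.6 and 89.0 in the PLZF- pools (log2 fold change 1.57 ± 0.37, adjusted p = 0.020, limma). Leaving out A6, A7 or B7 ended the call of Nme2 (0.12 to 0.28), and its q-value in the authors' deposited table was 0.065. Mtmr6, a phosphatase that inhibits the Kcnn4 channel, did not pass (log2 fold change 0.08, adjusted p = 0.91, limma).

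**Figure D4:**
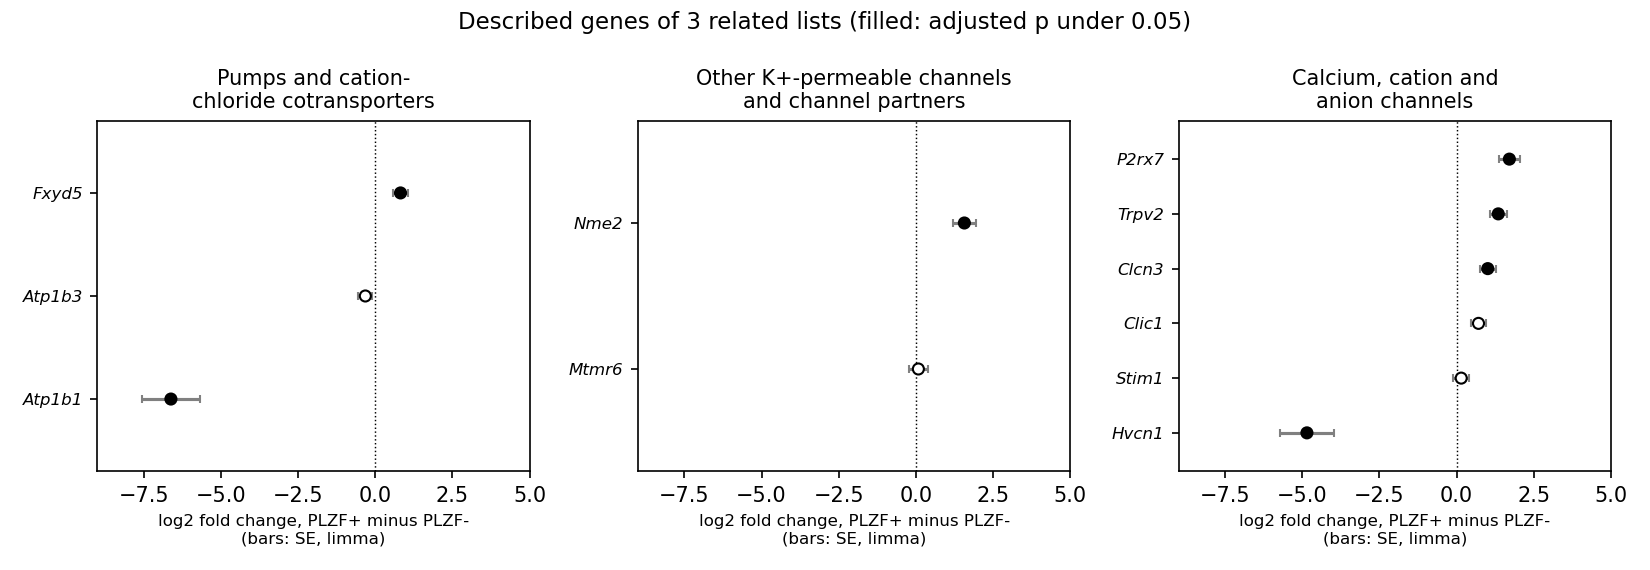
Fitted log2 fold change of PLZF+ against PLZF- cells (horizontal axis, bars: SE) for the tested genes of 3 lists that are described in the text, with filled points past the threshold. Atp1b1 and Hvcn1 lie far to the left, and the genes that rose, such as P2rx7, differ by smaller amounts.

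Of 18 tested calcium, cation and anion channel genes (22 measured), 3 rose and 1 fell, against 2.52% and 5.00% of all tested genes, with a median of 0.27. P2rx7, an ATP-gated cation channel through which potassium leaves the cell, had 252 and 195 normalized counts in the PLZF+ pools against 65.8 and 68.3 in the PLZF- pools (log2 fold change 1.71 ± 0.33, adjusted p = 0.0070, limma). Trpv2, a calcium-permeable cation channel, rose by 1.35 ± 0.28 (adjusted p = 0.011), and Clcn3, a chloride-proton exchanger, by 1.01 ± 0.26 (adjusted p = 0.030, limma). Leaving out A6, A7 or B7 ended the calls of P2rx7 and Trpv2 (0.064 to 0.23), and leaving out any library ended that of Clcn3 (0.080 to 0.32). The authors' deposited table called P2rx7 (q-value 0.019) and Trpv2 (0.0048) and did not call Clcn3 (0.19).

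Hvcn1, the voltage-gated proton channel, had 69.2 and 76.8 normalized counts in the PLZF- pools and 2.11 and 1.12 in the PLZF+ pools (log2 fold change -4.85 ± 0.88, adjusted p = 0.0042, limma). Leaving out A6 or B6 ended its call (0.12 and 0.084), and the q-value in the authors' deposited table was 0.025. Of the tested innate lymphoid and dendritic cell loci given beside Kcnj8, 9 of 10 and 6 of 10 fell, as did Hvcn1 and Atp1b1. Rora, Bst2 and Xcr1 were among those that did not pass. The part of these markers in the results for Hvcn1 and Atp1b1 was not tested. Stim1, the calcium sensor of store-operated entry, and Clic1 did not pass (log2 fold changes 0.15 and 0.71, adjusted p = 0.79 and 0.095, limma).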

How the data were processed

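Gene expression was measured in 4 libraries of sorted cells. Reads were mapped to mm10, and HISAT 0.1.6, SAMtools 1.2, Cufflinks 1.2 and Cuffdiff are named per the submitters' processing notes; the sources used here give neither annotation nor strand setting. Of 2 tables the authors made with Cuffnorm, the first holds normalized counts, a signal in which estimated counts are divided by a factor per library, and the second holds FPKM. Their Cuffdiff table gives a p-value and a q-value per locus, per the file headers without naming the subsets, so directions were taken from the FPKM table.

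Overlapping loci of one name were summed, Rn45s (listed at 0 in B7) was left out, and start positions were made 1-based. Of the low values, 92.8% to 94.5% were within 0.05 of whole read numbers, taking the commonest value of a library as 1 read. Genes with a mean of at least 10 were tested with limma 3.58.1 (R 4.3.3; trend, robust, two-sided) on log2(normalized count + 1), a scale that understates changes of low genes, with a threshold of 0.05 after Benjamini-Hochberg adjustment. The fit was also run on simulated counts. These gave every gene the same dispersion between libraries, which the real libraries need not share, so no conclusion is drawn from them. Python 3.11.15, pandas 2.3.3 and matplotlib 3.10.9 made tables and figures, and exon overlaps came from GENCODE M21.

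Every member past the filter is named, as are members with at least 5 reads in a library, and of each list the called members and the 2 most abundant others; genes named beyond this were chosen after their values were seen. Members and lists were chosen with earlier results of these data known. The p-values cover only the spread between the pooled libraries. Protein sequences were not used here. Some genes of the potassium channel group and of the lists are counted but not reported here by name.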

Additional observations from a re-analysis of the deposited data

How the results depend on the processing

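The count of 1 higher potassium channel gene was 0 without the trend and robust moderation and ran from 0 to 1 when a library was left out. The count of 1 lower gene was 0 with a pseudocount of 0.25 and 0 at a minimum mean of 50, where Kcnj8 is not tested, and ran from 0 to 1 when a library was left out. Each count was 1 under the remaining alternatives, including the authors' deposited Cuffdiff q-value. With a library left out, the lone library of a subset is assumed to vary like the other subset. No called gene changed sign in any fit. Scaling to equal totals moved the median gene by 0.106 (log2) and changed no call among the named genes.

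The list counts moved more. For pumps and cotransporters, the 1 higher gene was 0 with a pseudocount of 0.25, 0 with no filter, 0 by FPKM, 0 without trend and robust moderation, 0 with loci not summed and 0 by Cuffdiff, and 0 with any library left out, while the 1 lower gene was 2 with the well letter as a term, 0 by Cuffdiff and 0 to 1 with a library left out. For channel partners, the 2 higher genes were 1 with a pseudocount of 0.25, 1 by FPKM, 0 with no filter, 0 without trend and robust moderation, 0 by Cuffdiff and 0 to 1 with a library left out. For the other channels, the 3 higher genes were 1 with no filter, 0 without trend and robust moderation, 5 with the well letter and 0 to 2 with a library left out, and the 1 lower gene was 0 at a minimum mean of 50 and 0 to 1 with a library left out. The 3 higher genes of the other channels were also 2 by FPKM and 2 by Cuffdiff. Apart from fewer genes or libraries tested, the cause of these moves was not tested. No paired analysis was possible because the columns carry no replicate numbers; no label says that the well letter pairs libraries. Depth limits the members near 0, most of all in the PLZF- libraries.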
